A study of Mus musculus with 15 samples.

Results

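A set of 10 genes is described here, 10 of the 32372 genes in the count matrix: Bin1, Abi3, Sorl1, Picalm, Cd2ap, Ptk2b, Rin3, Cd33, Grn and Abca7. They were taken by name as mouse counterparts of genes at or near loci tied to the risk of Alzheimer's disease, and no measured value entered the rule, though earlier results of these data were known when the set was chosen. Cells labelled as microglia were isolated with CD45 beads from the cortex and hippocampus of 15 male C57BL/6J mice aged 3.5 months and profiled by droplet single-cell RNA sequencing, which counts unique molecular identifiers (UMIs). Each mouse was given 1 dose of 10 mg/kg of an antibody. ATV:4D9 targets mouse TREM2, a lipid-sensing receptor of microglia, and its Fc, called a transport vehicle (ATV), was engineered to engage the transferrin receptor and so reach the brain. ATV:RSV was the isotype control, built on the same vehicle. Mice of 4 groups received ATV:4D9 and were sampled at day 1, 7, 14 or 28, and mice of 1 group received ATV:RSV and were sampled at day 1 only. All 5 groups were hTfR KI, carrying the apical domain of the human transferrin receptor in the mouse gene, and each group held 3 mice, 1 in each of 3 batches. Every comparison with the control therefore used the same 3 mice, and a later day cannot be told apart from the time that passed without a control of that day.

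Variants in or near these genes are tied to the risk of late-onset disease, and many of the genes act where microglia take up, sort and degrade material. Bin1, Picalm, Cd2ap and Rin3 work at the membrane and in early endocytosis, Sorl1 and Abca7 in sorting cargo and moving lipids, and Grn in the lysosome. Cd33 is a sialic acid-binding receptor at the cell surface. Human CD33 is inhibitory and is thought to oppose TREM2, but the mouse protein lacks the canonical inhibitory motif of its tail, so that role may not hold for the gene measured here. Abi3 and Ptk2b act on actin and adhesion.

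The matrix held 102043 cells and 707518630 UMIs, with 5667 to 7596 cells and 32341960 to 70307384 UMIs per mouse. Depth moved with the groups: the median UMIs per cell were 8201.5 to 8995.5 in the day 1 mice of ATV:4D9 and 4975 to 5750 in the ATV:RSV mice. The median share of mitochondrial UMIs per cell was 3.96 to 4.50% at day 1 and 3.11 to 3.38% in ATV:RSV, without overlap, and its part in the results below was not tested. The authors' cluster 2 held 87.3 to 93.5% of the cells at day 1 and 1.12 to 2.35% in ATV:RSV. All 10 microglial markers were detected in both groups, at a summed 15308 to 17033 counts-per-million (CPM, here per UMIs of the library with no further scaling) at day 1 and 22552 to 24153 in ATV:RSV. Markers of other cells also moved: the 7 astrocyte markers summed to 116 to 121 CPM against 222 to 272, the 6 endothelial markers to 9.40 to 15.3 against 20.7 to 28.5, the 8 neuronal markers to 5.46 to 7.47 against 11.1 to 15.2, the 6 B cell markers to 22.2 to 24.3 against 29.4 to 36.3, the 7 oligodendrocyte markers to 66.2 to 73.2 against 88.5 to 108, the 6 monocyte markers to 13.88 to 18.05 against 4.51 to 11.5, and the 5 markers of oligodendrocyte precursors to 1.16 to 1.59 against 0.590 to 1.01. The 8 markers of border-associated macrophages overlapped, at 18.3 to 26.7 against 17.5 to 21.1. None of these marker lists was undetected in either group, and their part in the results below was not tested beyond leaving out 1962 cells that held UMIs of 3 or more markers of 1 other type, which changed no call of the 10 genes in any comparison. Across libraries, 1283 cell barcodes occurred more than once (2579 cells).

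All 10 genes are protein coding and were detected in every mouse. In mm10, 9 of them lie at chr11:95830074-95842476 (Abi3), chr9:41964720-42124297 (Sorl1), chr7:90130213-90213465 (Picalm), chr17:42792951-42876665 (Cd2ap), chr14:66153257-66281052 (Ptk2b), chr12:102283048-102390855 (Rin3), chr7:43524216-43544428 (Cd33), chr11:102430315-102437048 (Grn) and chr10:79996494-80015572 (Abca7). Abi3 overlaps Gngt2 and Zfp652 on the opposite strand, and whether reads were counted by strand is not given in the sources used here, so reads of Abi3 and of these genes may have been counted together. Bin1 and Grn each overlap a gene of the opposite strand as well, A830052D11Rik at a mean of 2.17 CPM and Fam171a2 at 0.481 CPM, both low beside the gene they overlap. In the annotation Phospho1 also overlaps Abi3 and Gm16214 overlaps Sorl1, both on the opposite strand, and Gm45220, Gm45221, Gm45222 and Gm45223 overlap Picalm on the same strand, but none of these was among the genes tested. At day 1 Gngt2 moved the other way (log2 fold change 0.51, SE 0.0695) and Zfp652 the same way as Abi3 (-0.88, SE 0.0706).

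Promoter sequences from RefSeq (GRCm38.p6) were held for 7 of the 10 genes, and the windows of the 4 genes with the lowest adjusted p at day 1 are shown, 3 of them lower and 1 higher. Each covers 300 bases around a RefSeq start of transcription and is written 5′ to 3′ on the strand of the gene. The Cd33 start lies inside the span printed above, whose outer end is that of a longer GENCODE transcript, and for Rin3, which has 2 windows, the outer one is shown. Capitals mark CACGTG, the core of the E-box bound by MiT/TFE and other helix-loop-helix factors, and CCAAT, the box bound by NF-Y.
Rin3, chr12:102282824-102283123, plus strand: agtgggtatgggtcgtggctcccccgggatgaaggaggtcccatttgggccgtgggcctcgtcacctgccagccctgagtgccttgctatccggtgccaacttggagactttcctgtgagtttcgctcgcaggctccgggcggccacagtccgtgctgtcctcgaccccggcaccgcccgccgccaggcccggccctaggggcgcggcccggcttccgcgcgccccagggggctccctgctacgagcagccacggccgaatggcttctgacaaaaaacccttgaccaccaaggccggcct
Cd33, chr7:43533122-43533421, minus strand: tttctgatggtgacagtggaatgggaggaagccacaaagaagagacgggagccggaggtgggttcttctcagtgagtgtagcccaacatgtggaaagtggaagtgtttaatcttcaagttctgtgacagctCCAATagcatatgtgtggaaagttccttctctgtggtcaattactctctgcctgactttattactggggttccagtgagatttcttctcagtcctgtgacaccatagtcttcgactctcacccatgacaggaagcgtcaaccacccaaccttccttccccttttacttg
Picalm, chr7:90129963-90130262, plus strand: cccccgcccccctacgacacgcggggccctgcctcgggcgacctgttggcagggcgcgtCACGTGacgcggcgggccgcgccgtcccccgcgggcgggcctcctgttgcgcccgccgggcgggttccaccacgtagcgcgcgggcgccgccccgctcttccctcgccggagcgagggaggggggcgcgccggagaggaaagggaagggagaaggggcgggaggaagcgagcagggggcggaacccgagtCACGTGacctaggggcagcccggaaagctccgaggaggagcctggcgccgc
Grn, chr11:102430257-102430556, plus strand: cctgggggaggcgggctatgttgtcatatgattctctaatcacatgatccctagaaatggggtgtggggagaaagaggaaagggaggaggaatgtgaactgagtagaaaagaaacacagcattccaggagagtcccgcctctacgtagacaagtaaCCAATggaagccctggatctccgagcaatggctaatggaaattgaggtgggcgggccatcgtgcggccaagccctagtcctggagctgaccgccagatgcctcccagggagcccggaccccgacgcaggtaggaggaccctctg
CACGTG, searched on both strands, was present at 2 sites in the Picalm window, and 2 of the 7 genes (Picalm and Sorl1) held it, against 8.09% of the 27025 genes with a window. CCAAT was present in 3 of the 7 genes (Cd33, Grn and Abca7) and in 41.1% of all genes with a window, so it occurred both in a gene that was lower at day 1 and in ones that were higher. GAGGAAGT, a site of the kind bound by PU.1, was in 3.69% of all genes with a window and in none of these 7. These are matches of letters in a window and say nothing of which factor binds.

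One day after ATV:4D9, 6 of the 10 genes were lower than in ATV:RSV (Rin3, Cd33, Sorl1, Picalm, Cd2ap and Abi3), 2 were higher (Grn and Abca7), and Bin1 and Ptk2b did not pass the test. Calls were made with limma-voom on counts summed per mouse, and CPM from here on use TMM-scaled library sizes unless said otherwise. The threshold was a Benjamini-Hochberg adjusted p under 0.05. So many genes moved at day 1 that 69.2% of the 14260 genes tested were called (34.7% higher and 34.6% lower), and 8 of 10 is close to that background. The CPM of the groups did not overlap for the same 8 genes, where 71.5% of all genes tested did not. The median log2 fold change was -0.34 over the 10 genes and -0.05 over all genes tested.

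**Figure D1:**
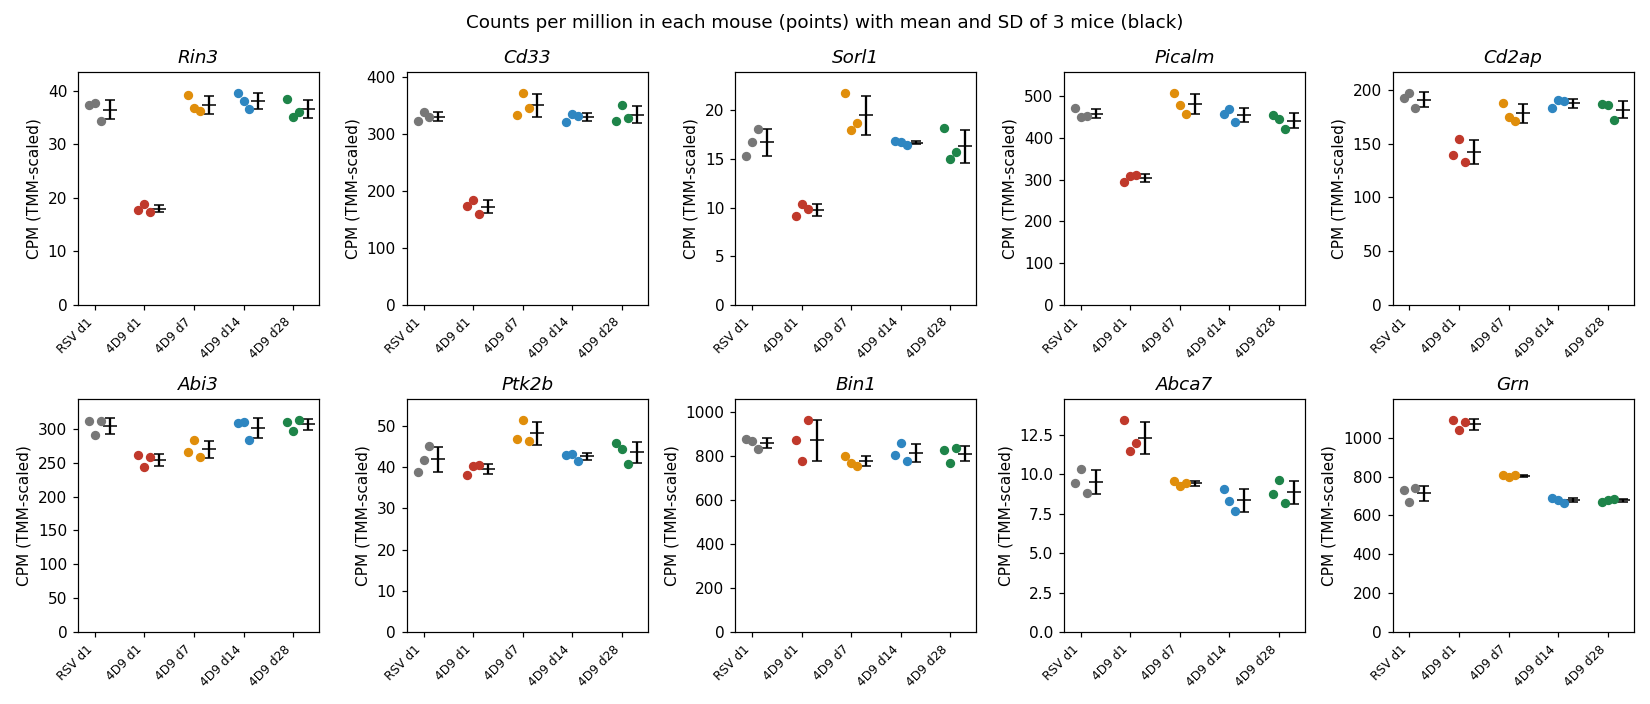
CPM (y axis, TMM-scaled, from 0) of each gene in each mouse (points) of ATV:RSV day 1 and ATV:4D9 days 1, 7, 14 and 28 (x axis), with the mean and SD of 3 mice in black. The 3 day 1 mice lay below the 3 ATV:RSV mice for Rin3, Cd33, Sorl1, Picalm, Cd2ap and Abi3 and above them for Grn and Abca7.

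Rin3, an exchange factor that activates the early endosomal GTPase Rab5, was measured at 37.3, 37.7 and 34.4 CPM in the ATV:RSV mice and at 17.8, 18.8 and 17.4 CPM at day 1. The 2 groups were far apart, and the spread within each was small beside the gap. Its log2 fold change was -1.02 (SE 0.0591, adjusted p = 4.02e-10, limma-voom). Picalm, a clathrin adaptor that sets the size of endocytic vesicles, stood at 471, 450 and 453 CPM in ATV:RSV and at 294, 310 and 311 CPM at day 1, again with no overlap. The log2 fold change of Picalm was -0.59 (SE 0.0484, adjusted p = 2.36e-08, limma-voom). Cd2ap, a scaffold that links receptors and endocytic proteins to actin, stood at 192, 197 and 183 CPM in ATV:RSV and at 140, 155 and 133 CPM at day 1. All 3 treated mice were below all 3 controls (log2 fold change -0.43, SE 0.0574, adjusted p = 6.82e-06, limma-voom), and with library size alone the value was -0.67.

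Bin1, a membrane-bending protein of the amphiphysin family, was the endocytic gene that did not pass the test. Its values were 877, 868 and 831 CPM in ATV:RSV and 871, 778 and 962 CPM at day 1, so that the day 1 mice lay on both sides of the controls. The log2 fold change was 0.014, with a 95% interval from -0.12 to 0.15 (adjusted p = 0.86, limma-voom). With scaling by library size alone, which moves the median of all genes to -0.29 at day 1, Bin1 was called lower at -0.23.

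Of the genes that sort cargo and lipids, Sorl1 and Abca7 went in opposite directions. Sorl1, a VPS10-domain receptor that returns cargo from endosomes with the retromer, was counted at 15.3, 16.7 and 18.1 CPM in ATV:RSV and at 9.16, 10.4 and 9.86 CPM at day 1. The groups did not overlap, and the log2 fold change was -0.77 (SE 0.0931, adjusted p = 2.15e-06, limma-voom). Abca7, a lipid transporter, was at 9.47, 10.3 and 8.78 CPM in ATV:RSV and at 13.42, 11.45 and 11.98 CPM at day 1. Here the treated mice were the higher ones, by 0.37 on the log2 scale (SE 0.0855, adjusted p = 0.00115, limma-voom). This call depended on the scaling: with library size alone the value was 0.13 and the adjusted p 0.182.

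Cd33, a receptor of the Siglec family, was measured at 322, 338 and 330 CPM in ATV:RSV and at 173, 184 and 160 CPM at day 1. The fall was 1.92-fold, with no overlap between the groups (log2 fold change -0.94, SE 0.0555, adjusted p = 4.85e-10, limma-voom). Grn encodes progranulin, a secreted and lysosomal protein whose loss causes lysosomal storage and frontotemporal dementia. It stood at 733, 669 and 739 CPM in ATV:RSV and at 1089, 1037 and 1081 CPM at day 1. Every treated mouse was above every control, 1.499-fold on average (log2 fold change 0.58, SE 0.0419, adjusted p = 4.65e-09, limma-voom). With library size alone the log2 fold change of Grn was 0.34 and still called.

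Of the genes of actin and adhesion, Abi3 was called and Ptk2b was not. Abi3, a subunit of the WAVE complex that starts actin branching, was at 311, 290 and 311 CPM in ATV:RSV and at 261, 244 and 258 CPM at day 1. The difference was larger than the spread of the mice (log2 fold change -0.26, SE 0.0505, adjusted p = 0.000293, limma-voom), and with library size alone it was -0.50. Ptk2b, the kinase Pyk2 that relays calcium and integrin signals, overlapped between ATV:RSV (38.85, 41.71 and 44.98 CPM) and day 1 (38.1, 40.1 and 40.4 CPM). Its log2 fold change was -0.08, with a 95% interval from -0.21 to 0.05 (adjusted p = 0.27, limma-voom), and with library size alone it was called lower.

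The direction also depended on whether a gene was read as a share of the UMIs or as UMIs per cell, since a day 1 cell held more UMIs. The mean over all genes together was 9329 UMIs per cell at day 1 and 6154 in ATV:RSV. Per cell, the mean raw UMIs of Rin3 went from 0.238 in ATV:RSV to 0.150 at day 1, a ratio of 0.633, those of Cd33 from 2.15 to 1.44 (0.672) and those of Sorl1 from 0.109 to 0.0817 (0.753). These 3 genes were lower on either scale. An exact permutation of the 5 groups within batches gave p = 0.00729 for Rin3, 0.0245 for Cd33 and 0.0242 for Sorl1. Grn went from 4.65 to 8.94 UMIs per cell (ratio 1.92, exact permutation p = 0.0235) and Abca7 from 0.0618 to 0.103 (1.66, exact permutation p = 0.02). Bin1, not called as CPM, was at 5.59 UMIs per cell in ATV:RSV and 7.26 at day 1 (1.30, exact permutation p = 0.00368). For Abi3 the per-cell means were 1.98 and 2.13 (exact permutation p = 0.0115), the reverse of its CPM, and the mice of the groups overlapped. The rises of Bin1 and Abi3 were smaller than that of all UMIs per cell, and those of Grn and Abca7 were larger on average. Picalm, Cd2ap and Ptk2b did not pass the test per cell (exact permutation p = 0.0666, 0.155 and 0.0644). The p-values are for a difference among the 5 groups, not for day 1 against the control alone. They were not adjusted for the number of tests, and no other genes were tested per cell.

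**Figure D2:**
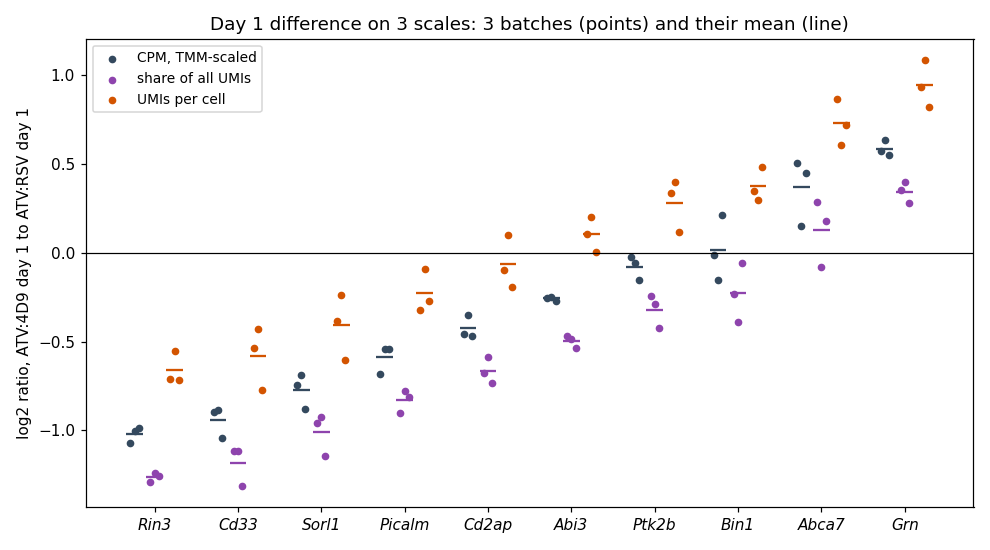
log2 ratio of ATV:4D9 day 1 to ATV:RSV day 1 (y axis) for each gene (x axis) on 3 scales: TMM-scaled CPM, the share of all UMIs, and UMIs per cell; points are the 3 batches and lines their means. Rin3, Cd33, Sorl1 and Picalm lay below 0 and Grn above 0 in every batch on every scale, while Abi3, Ptk2b and Bin1 changed side with the scale.

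With every cell thinned to 3385 UMIs, the share of cells with a UMI of Cd33 was 66.7 ± 0.897% in ATV:RSV and 40.7 ± 2.13% at day 1 (SD, 3 mice each). The share was 12.2 ± 0.602% and 5.41 ± 0.0701% for Rin3, 5.59 ± 0.336% and 2.76 ± 0.252% for Sorl1, and 77.0 ± 0.775% and 57.8 ± 0.964% for Picalm. Among the cells kept, fewer thus had a UMI of each of these genes at equal depth. The thinning kept 6410 of 7020, 5585 of 6794 and 5722 of 6487 cells in the ATV:RSV mice. In the day 1 mice it kept 6838 of 7118, 6993 of 7343 and 5651 of 5998, so a larger share was left out in ATV:RSV. Grn was found in 90.5 ± 1.35% and 94.0 ± 0.484% of cells, and Abca7 in 3.42 ± 0.298% and 3.90 ± 0.560%, with overlapping mice. The exact permutation p over the 5 groups ran from 0.000833 (Abi3) to 0.0478 (Bin1) for the 10 genes. It was run on the 10 genes only and not adjusted for their number, so no share over all genes stands beside it. Without thinning the shares of Cd33 were 81.2 ± 1.45% and 69.3 ± 4.09%. Those of Bin1, Abi3 and Ptk2b were higher at day 1 without thinning and lower with it. No class of at least 50 cells that should lack these genes was found: the 984 cells with at least 3 oligodendrocyte markers held 303 CPM of Cd33 with no TMM scaling, against 294 CPM in the cells with microglial markers, so a level of free RNA could not be set.

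By day 7 the differences of day 1 had largely gone. Only Grn was called against ATV:RSV, with 806, 797 and 808 CPM, above the 3 controls and below all 3 mice of day 1. Its log2 fold change was 0.17 (SE 0.0422, adjusted p = 0.0288, limma-voom), beside 3.98% of all genes tested that were called at this day (2.99% higher and 0.996% lower). The call of Grn was lost without any 1 of the 3 day 7 mice or without replicate 2 of ATV:RSV, where the value was 0.13 to 0.18 and the adjusted p 0.073 to 0.144 (limma-voom). It was also lost with library size alone (0.08), in the fit of only the 6 mice compared (0.17) and with thinned cells (0.16). Abi3 was at 266, 284 and 259 CPM at day 7, below every control, and its log2 fold change of -0.17 (SE 0.0507, adjusted p = 0.0713, limma-voom) passed the test with the batch as a block. Ptk2b was at 46.7, 51.3 and 46.3 CPM, above every control (0.20, SE 0.0626, adjusted p = 0.0915, limma-voom). Bin1 was at 800, 770 and 756 CPM, below every control (-0.15, adjusted p = 0.265, limma-voom). The mice of 4 of the 10 genes did not overlap with the controls at day 7, where 21.2% of all genes tested did not.

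The change from day 1 to day 7 was tested on its own contrast. In it 6 genes rose (Sorl1, Picalm, Cd2ap, Ptk2b, Rin3 and Cd33) and 3 fell (Bin1, Grn and Abca7), beside 66.9% of all genes tested, 33.0% higher and 33.9% lower. Rin3 rose by 1.05 on the log2 scale (SE 0.0597, adjusted p = 3.57e-10, limma-voom), Cd33 by 1.02 (SE 0.0556) and Sorl1 by 0.99 (SE 0.0928). The day 7 mice of Cd33 (332, 371 and 345 CPM) lay in and above the range of the controls, and those of Sorl1 (21.79, 18.03 and 18.73 CPM) overlapped it at 1 mouse. Grn fell by 0.41 (SE 0.0419, adjusted p = 3.21e-07, limma-voom) and Bin1 by 0.16 (SE 0.0646, adjusted p = 0.0373, limma-voom). The day 1 and day 7 mice of Bin1 overlapped, and its call was lost in 7 of the alternatives. Abi3 did not pass the test (0.08, adjusted p = 0.159, limma-voom), except with library size alone, where it was called at 0.23 (adjusted p = 0.000447).

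At days 14 and 28 no gene of the 10 was called, with 0.400% of all genes tested called at day 14 and 0% at day 28. At day 28 limma-voom called 0 genes of the whole table, with 571 at an unadjusted p under 0.05, 0 by edgeR and 14 by DESeq2. For Rin3 the 95% interval of the log2 fold change at day 28 ran from -0.12 to 0.12, and for Cd33 from -0.10 to 0.13. The widest interval at day 28 was that of Abca7, from -0.30 to 0.09. The moderated F test over the 5 groups called all of the genes but Bin1 (adjusted p = 0.166, limma-voom), beside 66.5% of all genes tested.

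**Figure D3:**
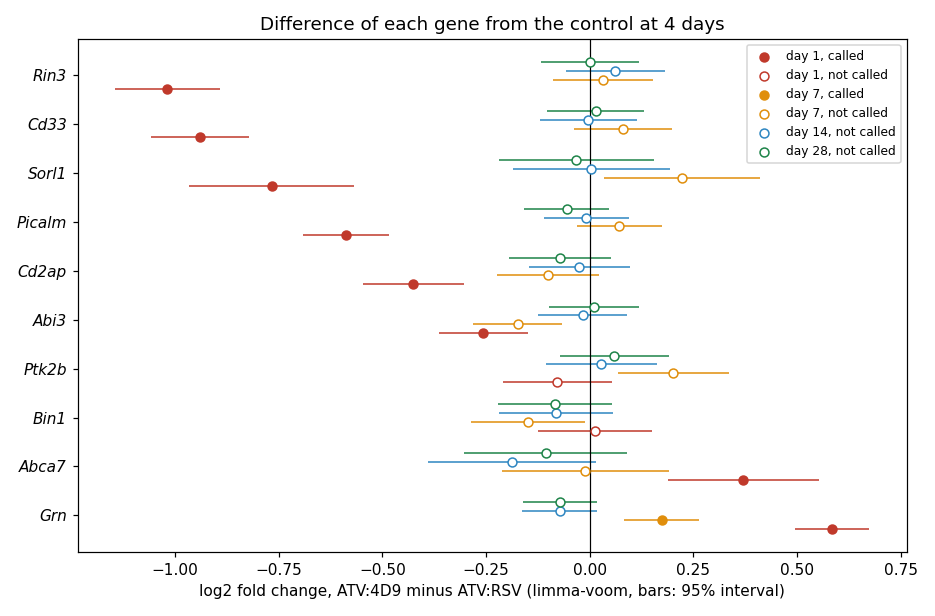
log2 fold change (x axis, limma-voom, bars are 95% intervals) of each gene (y axis) at days 1, 7, 14 and 28 of ATV:4D9 against ATV:RSV; filled points were called and open points were not. The filled points are 8 genes at day 1 and Grn at day 7, and the open points of days 14 and 28 lie around 0.

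The authors divided the cells into clusters 0, 1 and 2, and because the clusters were built from the genes of these same cells, values within clusters are a description with no test. Rin3 was lower at day 1 than in ATV:RSV in each cluster: 24.4 against 37.5 CPM in cluster 0, 28.1 against 39.1 in cluster 1 and 18.55 against 24.04 in cluster 2. Cd33 was at 255 against 332 CPM in cluster 0, 278 against 369 in cluster 1 and 176 against 224 in cluster 2, where the mice overlapped. The means of Picalm and Sorl1 were likewise lower in all 3 clusters, but few cells stand behind some of them: the day 1 mice had 211 to 383 cells in cluster 0 and 180 to 555 in cluster 1. Sorl1 rested on 39 UMIs in cluster 0 at day 1 and on 41 in cluster 2 of ATV:RSV, each over 3 mice. The ATV:RSV cells of cluster 2, 76 to 165 per mouse, held less Rin3 and Cd33 than those of clusters 0 and 1. This was not particular to them. In ATV:RSV the means of Picalm (383 CPM against 476 in both), Cd2ap (145 against 187 and 221) and Bin1 (743 against 909 and 856) were also lower in cluster 2. So were those of Abi3, Sorl1 and Abca7, while Ptk2b (57.6 against 44.1 and 40.4) and Grn were higher there. Grn was at 869 against 741 CPM in cluster 0, 837 against 718 in cluster 1 and 1147 against 922 in cluster 2.

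Within cluster 2 the scaling decided several values. With TMM over the sums of mice and clusters, the log2 ratio of day 1 to ATV:RSV was 0.31 for Bin1, 0.33 for Abi3 and 0.31 for Grn. With library size alone the ratios were 0.02, 0.04 and 0.03. Those of Rin3 (-0.37 and -0.66), Cd33 (-0.34 and -0.63) and Ptk2b (-0.46 and -0.74) kept their sign on both. In clusters 0 and 1 the ratio of Abi3 was -0.04 and -0.07, with overlapping mice, though Abi3 was called lower over all cells. No cluster thus showed a clear fall of Abi3. In ATV:RSV its mean was 212 CPM in cluster 2, against 320 in cluster 0 and 311 in cluster 1, and most day 1 cells were in cluster 2. The part of this shift between clusters in the call was not tested. At day 7 the ratio of Grn was 0.14, 0.18 and 0.32 in clusters 0, 1 and 2, and that of Abi3 was -0.17, -0.20 and -0.01.

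**Figure D4:**
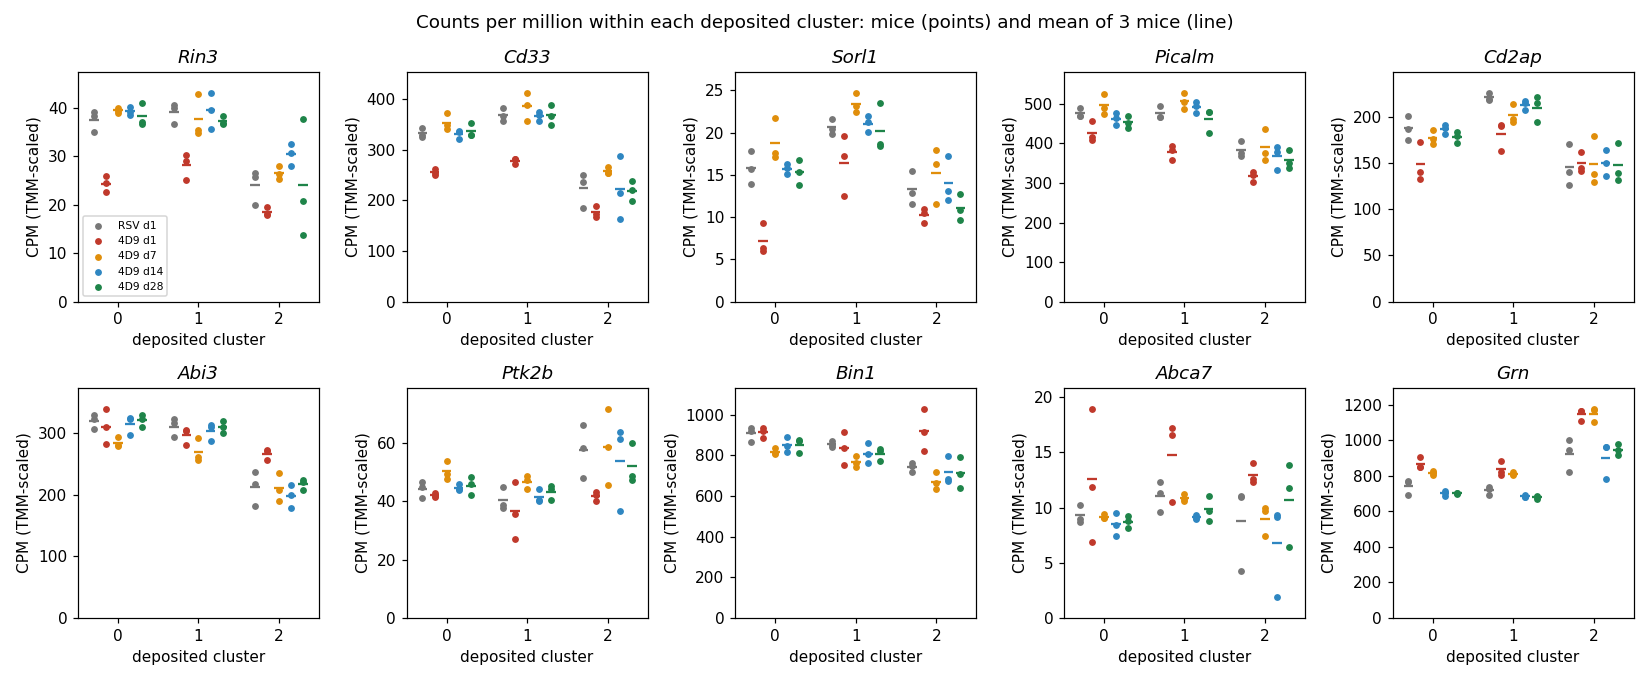
CPM (y axis, TMM-scaled over sums of mouse and cluster) of each gene in the deposited clusters 0, 1 and 2 (x axis), with points for mice, lines for the mean of 3 mice and colours for the 5 groups. In ATV:RSV the means of all genes but Ptk2b and Grn are lower in cluster 2 than in clusters 0 and 1. The day 1 means of Rin3 lie below those of ATV:RSV in each cluster.

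Day 1 cells with a UMI of the division genes Mki67 or Top2a made up 19.6 to 27.4% of a mouse's cells, against 0.397 to 0.684% in ATV:RSV. In cluster 2 of the 3 day 1 mice these cells held more Rin3 than the other cells, by 0.35 to 0.71 on the log2 scale, and more Sorl1, by 0.29 to 0.52. Both genes were thus higher in the cells with a UMI of a division gene, while both were lower at day 1 as a whole. Abca7 was higher by 0.15 to 0.34 and Cd2ap by 0.09 to 0.19. Grn was lower, with ratios of -0.14 to -0.13. These ratios are of CPM on library size alone. With TMM over the same sums, an alternative added after the data were seen, they ran from 0.26 to 0.62 for Rin3, 0.20 to 0.43 for Sorl1, 0.05 to 0.28 for Abca7, 0.0087 to 0.095 for Cd2ap and -0.24 to -0.20 for Grn, and those of Picalm, Ptk2b and Cd33 were below 0 in all 3 mice, where they had lain on both sides of it. The median depth of these cells was higher too (11408 against 9290 UMIs in replicate 1), and its part in these ratios was not tested. Leaving these cells out of the sums changed no call among the 10 genes at day 1.

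**Figure D5:**
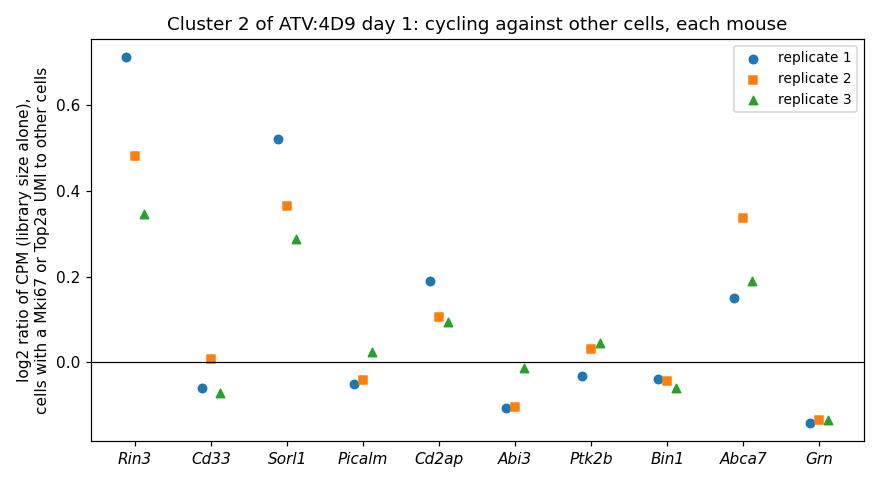
log2 ratio of CPM (library size alone) in cells with a Mki67 or Top2a UMI to CPM in the other cells (y axis) of cluster 2 at day 1 of ATV:4D9, for each gene (x axis) and each of 3 mice (symbols). Rin3, Sorl1, Cd2ap and Abca7 lie above 0 and Grn, Bin1 and Abi3 below 0 in all 3 mice.

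Lists of genes that work with the 10 were set beside them, and their counts stand beside 34.7% of all genes tested that were higher and 34.6% lower at day 1, and 2.99% and 0.996% at day 7. Of 59 tested genes from other Alzheimer risk loci, 21 were higher and 26 lower at day 1, with a median log2 fold change of -0.15. Lilrb4a, an inhibitory receptor, had the highest value (4.25, SE 0.143), followed by the protease gene Adamts1 (2.23, SE 0.212). The lowest were Aph1c, a subunit of gamma-secretase (-1.69, SE 0.216), and the endolysosomal channel gene Tpcn1 (-1.21, SE 0.0882). Aph1c was low in both groups, at a mean of 0.989 CPM at day 1 and 3.27 in ATV:RSV. At day 7 this list had 5 genes higher and 1 lower, among them the apolipoprotein gene Apoe (1.15, SE 0.173) and the adaptor gene Scimp (0.85, SE 0.188) above the controls and Ms4a6b (-0.23, SE 0.0551) below them.

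Among 36 tested genes of clathrin endocytosis, 7 were higher and 19 lower at day 1 (median -0.21). Ap2s1, the small subunit of the clathrin adaptor AP2, rose by 1.00 (SE 0.0525) and the clathrin light chain gene Cltb by 0.85 (SE 0.0577). Rin2, a relative of Rin3, was lower (-0.94, SE 0.112), as was the dynamin gene Dnm1 (-0.96, SE 0.264). Dnm1 was low in both groups, at a mean of 1.13 CPM at day 1 and 2.23 in ATV:RSV. At day 7 the adaptor gene Ap2a2 was the 1 gene called (-0.31, SE 0.0589). Of 9 tested WAVE complex genes, 1 rose and 5 fell (median -0.27): Brk1 rose by 0.43 (SE 0.0392), while Cyfip2 (-0.95, SE 0.224) and Nckap1 (-0.83, SE 0.167) fell. Cyfip2 (means of 0.638 CPM at day 1 and 1.20 in ATV:RSV) and Nckap1 (1.02 and 1.84) were low in both groups. Of 11 retromer and VPS10 receptor genes, 5 rose and 3 fell (median -0.05), with the retromer subunit Vps29 at 0.78 (SE 0.0444), Snx3 at 0.72 (SE 0.0552), Snx5 at -0.59 (SE 0.0422) and the progranulin receptor Sort1 at -0.82 (SE 0.0573). At day 7 Snx6 was the 1 gene of this list called (-0.24, SE 0.0418).

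None of 7 tested A-subfamily ABC transporters rose and 4 fell at day 1 (median -0.40), including Abca9 (-1.40, SE 0.0975) and the cholesterol exporter Abca1 (-0.40, SE 0.0644), whereas Abca7 was higher. Of 9 Siglecs and SHP phosphatases 3 rose and 5 fell (median -0.32). The phosphatases Ptpn6 (0.45, SE 0.0698) and Ptpn11 (0.44, SE 0.0584), which bind inhibitory receptors, were higher, as was Siglec1 (3.79, SE 0.295), named after its values were seen because it was too low in ATV:RSV (mean 0.230 CPM) for the rule, and Siglecg (-1.45, SE 0.142) and the microglial Siglech (-0.97, SE 0.0449) lower. At day 7 Cd22 (0.71, SE 0.123) and Siglecf (0.48, SE 0.0984) were higher and Siglech lower (-0.23, SE 0.0448). Of 7 progranulin partners 2 rose and 5 fell (median -0.33): the lysosomal enzyme gene Gusb (1.21, SE 0.0592) was higher, as Grn was, and Tnfrsf1b (-0.80, SE 0.0746) was lower. Of 14 focal adhesion genes 7 rose and 5 fell (median 0.03), with the kinases Fgr (2.07, SE 0.126) and Ptk2 (0.92, SE 0.139) higher and Pxn (-0.89, SE 0.0494) and Vcl (-0.55, SE 0.124) lower. Fgr was also higher at day 7 (1.03, SE 0.143). No gene of these 8 lists was called at day 14 or day 28.

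The genes whose log2 CPM followed each of the 10 most closely were sought among 7774 genes with a mean of at least 10 CPM. Over the 15 mice, Rin3 was followed by Dennd1c (Pearson r = 0.995) and Clec4a2 (0.994), Cd33 by Crbn (0.993) and Snx29 (0.992), and Grn by Rtp4 (0.993) and Ifitm3 (0.990). Over the 12 mice outside day 1 of ATV:4D9, Grn was still closest to Rtp4 (0.950), followed by Zbp1 (0.946). The 2 closest genes of Rin3 over the 12 mice were Rtf1 (0.895) and Man1b1 (0.893), and those of Cd33 were Map2k7 (0.851) and 1600014C10Rik (0.828), none of which was among the 2 closest over 15 mice. The 15 points share the gap between day 1 and the other groups, and no test was run on them.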

How the data were processed

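Single-cell 3′ libraries of CD45 bead-enriched cells were made from 15 mice. The authors mapped reads to mm10 with Cell Ranger (4.0.0 in the submitters' processing notes), and filtered and clustered the cells. The deposited matrix holds UMI counts, not normalized, and the deposited cell table gives UMI counts, percent of mitochondrial UMIs, cluster and mouse of each cell. The batch names in that table differ from the batch numbers in the labels but match them one to one, and the labels were used.

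Counts were summed per mouse, filtered with filterByExpr (minimum count 10, minimum total count 15), scaled by TMM and tested by limma-voom in 1 fit of the 5 group means (R 4.3.3 with limma 3.58.1 and edgeR 4.0.16). The contrasts were each ATV:4D9 day minus ATV:RSV, and day 7 minus day 1, and p-values were adjusted over 14260 genes. The edgeR quasi-likelihood test and DESeq2 (1.42.0), other scalings, filters and sets of cells, and leaving out each mouse were alternatives, and the script was tested on simulated data. CPM use TMM-scaled library sizes, except for marker sums, cells with markers of a type and cells with a division gene, which use library size alone. Per-cell values were tested per mouse by an exact permutation of groups within batches (smallest p 6.9444e-05). Thinning to 3385 UMIs left out 10204 cells (3.93 to 17.8% per mouse). Doublet calls were not made, and the 5% of cells with most UMIs were left out as an alternative.

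The 10 genes and the 8 lists were chosen with earlier results of these data known. From each list the text names up to 2 genes with the highest and 2 with the lowest log2 fold change at day 1 and day 7, among genes that were called, had 10 or more UMIs in all 6 mice of the contrast and did not overlap, and for each of the 10 genes the 2 most alike by Pearson r were found. Positions are from GENCODE M21. Protein sequences were not used here. One gene that this rule names is not reported here.

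Batch numbers pair the mice, since by the labels a batch held every one of the 5 conditions. The mean r of the deviations from the group means was 0.0539 for mice of 1 batch (-0.225 to 0.259, 30 pairs) and -0.0267 for other pairs (60 pairs). Each library came from a separate animal, by the labels.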

Additional observations from a re-analysis of the deposited data

Results flagged for a closer look

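The effect of ATV:4D9 differed between day 1 and day 7 for 9 of the 10 genes, by the limma-voom test of day 7 against day 1, beside 66.9% of all genes tested. The difference (day 7 minus day 1, log2 scale) was 1.05 for Rin3, 1.02 for Cd33, 0.99 for Sorl1, 0.66 for Picalm, 0.33 for Cd2ap and 0.28 for Ptk2b. It was -0.41 for Grn, -0.38 for Abca7 and -0.16 for Bin1. Both effects share the ATV:RSV mice, so the contrast rests on the 3 mice of each day alone. For Ptk2b neither day passed the test against ATV:RSV, and for Bin1 the mice of the days overlapped, and 7 of the 26 alternatives no longer called it. With library size alone the 9 genes were others in part: Bin1 was not called and Abi3 was, at 0.23 (adjusted p = 0.000447, limma-voom).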

How the results depend on the processing

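The day 1 calls of Rin3, Cd33, Sorl1, Picalm, Cd2ap, Abi3 and Grn kept their direction and passed the test in all 26 alternatives. The log2 fold changes that turn sign below did not pass the test as reported. Abca7 rests on 297 to 854 UMIs per mouse and Sorl1 on 461 to 945. The cause of each change below was not tested.

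With library size alone, the genes called at day 1 split into 3690 higher and 6959 lower, in place of 4942 and 4930, and at day 7 into 317 and 882 (1199 in all), in place of 426 and 142; from day 1 to day 7 the split was 5908 and 3971, in place of 4703 and 4835. Day 14 then had 19 genes, in place of 57. The calls among the 10 genes at day 7 became 2 (Bin1 and Abi3). Log2 fold changes turned sign to -0.23 for Bin1 at day 1, to -0.024 for Picalm, -0.063 for Rin3 and -0.014 for Cd33 at day 7, to -0.049 for Sorl1 and -0.025 for Ptk2b at day 14, and to -0.0092 for Abi3, -0.018 for Rin3 and -0.0049 for Cd33 at day 28.

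DESeq2 called 871 genes at day 7, 132 at day 14 and 14 at day 28, and 3 of the 10 genes at day 7 (Abi3, Ptk2b and Grn). With the batch as a replicate block, 1014, 122 and 2 genes were called, and 2 of the 10 at day 7 (Abi3 and Grn); the block changed no other call among the 10. With only the 6 mice compared, 0 of the 10 genes were called at day 7 and 0 genes at day 14, and Rin3 was at -0.0034 at day 28. With thinned cells 0 of the 10 genes were called at day 7, and the values were -0.012 for Bin1 at day 1, -0.025 for Sorl1 and -0.026 for Ptk2b at day 14, and 0.024 for Sorl1 and -0.00096 for Rin3 at day 28. Sorl1 at day 14 was also at -0.0021 with edgeR, -0.0092 without the 5% of cells with most UMIs and -0.00062 without cells with a Mki67 or Top2a UMI, where Abca7 was at 0.0028 at day 7. Cd33 at day 14 was at 9.5e-05 with RLE size factors.

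Leaving out 1 mouse gave 331 to 611 genes at day 7, lowest without ATV:RSV replicate 2, and 0 to 59 at day 14, lowest without ATV:4D9 day 14 replicate 1, and 0 to 2 of the 10 genes at day 7. Log2 fold changes then ran from -0.057 to 0.096 for Bin1 at day 1, from -0.0077 to 0.057 for Rin3 and -0.063 to 0.046 for Abca7 at day 7, from -0.049 to 0.025 for Abi3, -0.062 to 0.063 for Sorl1, -0.032 to 0.019 for Picalm, -0.026 to 0.081 for Ptk2b and -0.021 to 0.015 for Cd33 at day 14, and from -0.022 to 0.034 for Abi3, -0.12 to 0.026 for Sorl1, -0.039 to 0.029 for Rin3 and -0.022 to 0.039 for Cd33 at day 28.

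Without thinning, the share of cells with a UMI differed at day 1 by 1.00 percentage points for Bin1, 2.14 for Abi3 and 4.21 for Ptk2b, against lower shares with it, and by -3.92 for Picalm, -0.468 for Cd2ap and 2.86 for Grn, with the call lost. Leaving out 1 batch leaves 120 arrangements, and many calls at p under 0.05 (exact permutation) were lost. With so few arrangements, even a large gap between day 1 and all other groups need not reach p under 0.05. The p then depends also on how the other groups are ordered. A lost or kept call therefore cannot tell whether a result rests on 1 batch. For the share of cells, calls of Sorl1, Picalm, Ptk2b and Abca7 were lost in all 3 fits, with p up to 0.283. Those of Bin1, Rin3 and Grn were lost in 2 fits and that of Cd2ap in 1. Abi3 and Cd33 kept theirs. For UMIs per cell, calls of Sorl1, Cd33, Grn and Abca7 were lost in all 3 fits, with p up to 0.192. Those of Bin1, Abi3 and Rin3 were lost in 2, and Ptk2b gained a call in 1. The differences in share then ran from -3.57 to -1.81 for Bin1, -2.98 to -2.61 for Sorl1, -20.1 to -18.4 for Picalm, -13.7 to -12.6 for Cd2ap, -3.63 to -2.13 for Ptk2b, -7.04 to -6.52 for Rin3, 2.94 to 4.00 for Grn and 0.162 to 0.852 for Abca7. Differences in UMIs per cell ran from 1.44 to 1.90 for Bin1, 0.0851 to 0.217 for Abi3, -0.0325 to -0.0202 for Sorl1, 0.0474 to 0.0752 for Ptk2b, -0.0940 to -0.0802 for Rin3, -0.789 to -0.614 for Cd33, 4.11 to 4.60 for Grn and 0.0346 to 0.0453 for Abca7.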
